A study of Homo sapiens with 2 samples.

Results

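The genes described here are the numbered zinc finger (ZNF) genes of human chromosome 19, measured in Hep3B, an established hepatocellular carcinoma line. A gene was taken when its transcript cluster, the set of probes that the array assigns to 1 gene, had a chromosome 19 identifier and a single symbol made of ZNF, a number and at most 1 further letter. Of 245 such genes, 217 had a value above 4.78 in at least 1 of the arrays and were kept, out of 33616 named genes measured in all and 16803 above the same threshold. The genes were thus chosen by their log2 values on these same arrays, and with earlier results of the arrays known, and everything below describes them without a test.

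Total RNA was compared between Hep3B cells in which SOX4 had been knocked out with CRISPR/Cas9 and the parental, SOX4 wild-type Hep3B cells, with 1 array for each. Both were grown in the same medium and lysed when nearly confluent, but the knockout cells alone were kept in puromycin, so genotype, drug and selection cannot be told apart. The labels do not say whether the knockout line is 1 clone. Values are the authors' log2 values, differences are knockout minus parental, and a fold is 2 raised to the size of the difference. With 1 array per genotype no difference has a replicate check, and precision is limited by how few arrays there are.

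Zinc finger genes of this class encode proteins whose repeated C2H2 fingers, each folded around a zinc ion, read DNA. Many carry a KRAB domain that recruits the corepressor TRIM28, which brings the histone methyltransferase SETDB1 and HP1 proteins to the bound site and silences it, often at a retrotransposon. Many of the genes multiplied by tandem duplication, part of them in primates, and most stand in long runs on chromosome 19. Neighbours can thus be close in sequence, and probes of one may also capture RNA of another.

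SOX4, a transcription factor of the SOX family and the targeted gene, gave 12.44 (knockout) and 13.14 (parental), a difference of -0.70. Probes read RNA and not the edited bases, so this value is a weak check of the knockout label. Of the liver markers, 9 of 9 measured were above the threshold on both arrays, from 9.73 to 19.38 in the knockout and from 12.44 to 19.23 in the parental cells. ALB, the albumin gene, was at 18.84 against 18.87, and AFP, the fetal serum protein made by many liver tumours, was far lower in the knockout, at 9.73 against 15.50. Over the 9 markers 2 were at least 2-fold lower, AFP and the apolipoprotein gene APOA1 at -1.17, and 0 were 2-fold higher, with a median of -0.15. HNF4A was not analysed here. Among markers of other cells, all 3 endothelial genes, the fibroblast genes DCN and THY1 and the leukocyte genes PTPRC and CD3E were under the threshold in both arrays. Of 6 measured fibroblast markers 4 were above it, with a list mean of 6.60 against 5.97, and LUM, a matrix proteoglycan, alone was far apart, at 12.69 against 7.90. Of 4 measured leukocyte markers 2 were above it, with a list mean of 6.66 against 6.13 and the lysozyme gene LYZ at 11.87 against 9.62. The part of these markers in the values below was not tested, and in RNA of a whole culture fewer cells of a kind and less RNA per cell cannot be told apart.

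The ZNF genes of chromosome 19 stood lower in the knockout array almost throughout. Of the 217 genes above the threshold, 189 were lower and 28 higher by any amount, where 46.6% of all 16803 named genes above the threshold were lower. At least 2-fold lower were 50 (23.0%), against 3.64% of all genes, and at least 2-fold higher were 0, against 6.50% of all genes. The median difference was -0.59, with quartiles of -0.97 and -0.24, while the median over all genes was 0.04. At 1.5-fold or more 110 were lower and 3 higher, against 11.2% and 15.5% of all genes, and at 4-fold or more 5 were lower and 0 higher, against 0.476% and 1.34% of all genes.

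The level threshold could have favoured genes that are high in 1 array only. Of the 217 genes, 202 were above it in both arrays, 10 in the parental array only and 5 in the knockout array only. Over all 245 measured genes, those under the threshold included, 51 were at least 2-fold lower, 0 were 2-fold higher and the median difference was -0.49, where 1.94% of all 33616 named genes were 2-fold lower and 3.36% higher. These include the same 217 genes. The 28 genes under the threshold alone had a median of -0.03, with 16 lower and 12 higher by any amount. Of them 1 (3.57%) was 2-fold lower and 0 higher, against 0.238% and 0.208% of all named genes under the threshold. Just inside the threshold lay ZNF833P with a higher value of 4.84, ZNF563 with 4.85 and ZNF493 with 4.87. Just outside lay ZNF671 with 4.72, ZNF709 with 4.74 and ZNF723P with 4.75, the last of them at 3.46 in the knockout array.

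**Figure D1:**
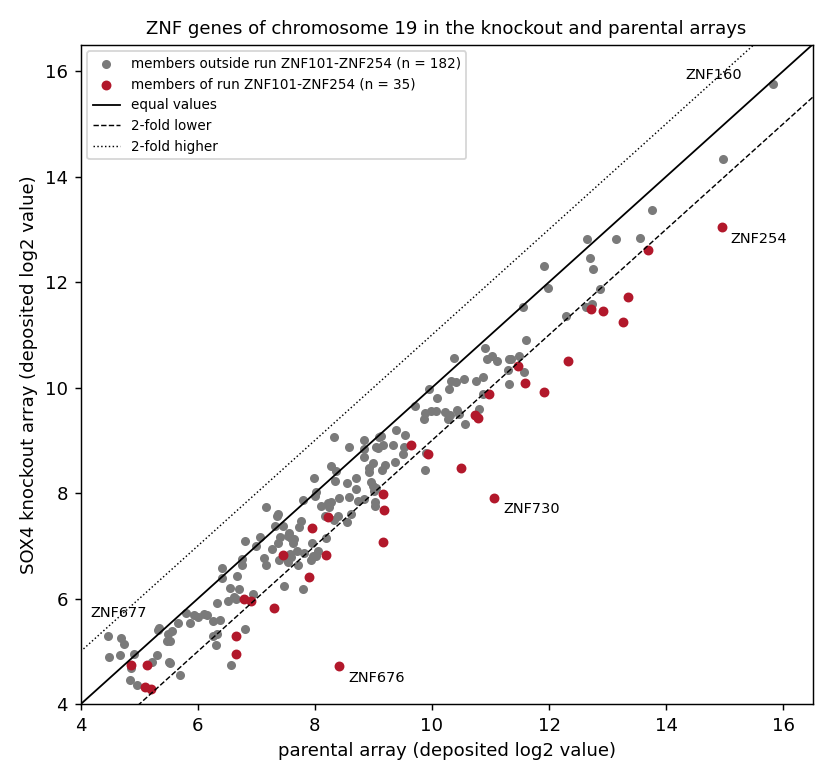
Deposited log2 value of each of the 217 genes in the parental array (horizontal axis) and in the SOX4 knockout array (vertical axis), 1 point per gene, with lines at equal values and at 2-fold lower or higher. The points lie mostly under the line of equal values. The 35 genes of the run from ZNF101 to ZNF254 (red) have the lowest median difference of the runs, -1.36, with ZNF676 at 4.73 against 8.42.

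The values of other genes were closer to 0. The 745 other named genes of chromosome 19 above the threshold had a median difference of 0.00, with 24 (3.22%) at least 2-fold lower and 36 higher. ZNF genes on other chromosomes lay between, with a median of -0.29 over 210 genes, 23 (11.0%) at least 2-fold lower and 5 higher. The parental medians were 8.35 for the ZNF genes of chromosome 19, 7.72 for those elsewhere and 8.24 for all genes. The ZNF genes elsewhere were thus dimmer, and the sets were not matched for level.

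Medians were below 0 in each of 4 bands of signal. Among the 39 ZNF genes of chromosome 19 with a mean of both arrays up to 6 the median was -0.37, among 66 between 6 and 8 it was -0.59, among 64 between 8 and 10 it was -0.51, and among 48 above 10 it was -0.78. Other named genes in the same bands had medians of -0.01, 0.08, 0.09 and 0.05. Across the 217 genes, level and difference had a Pearson correlation of -0.18, which is across genes of 1 pair of arrays and not over replicates. By strand, 96 genes on the plus strand had a median of -0.50 and 86 on the minus strand of -0.64, over the genes with a RefSeq promoter entry.

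**Figure D2:**
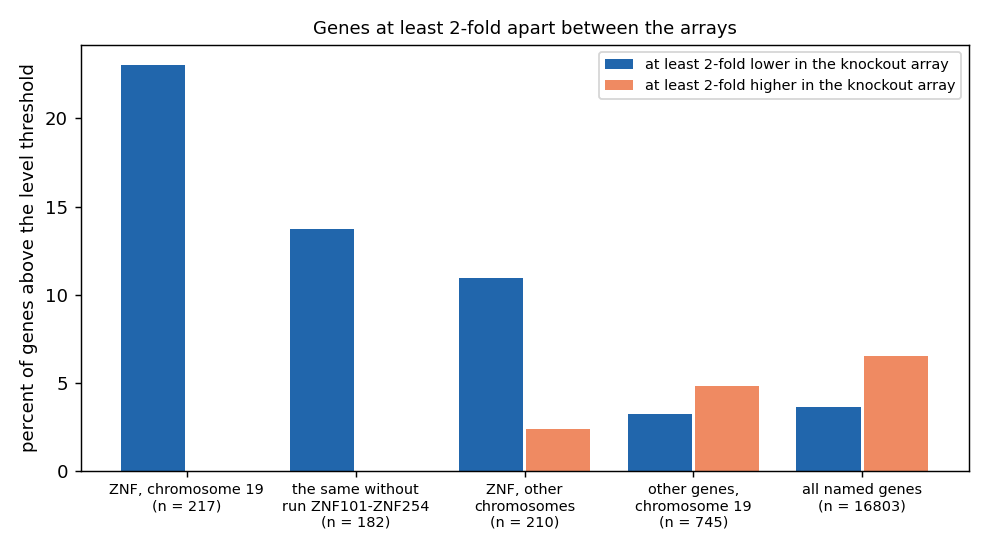
Percent of genes above the level threshold that were at least 2-fold lower (blue) or higher (orange) in the knockout array, for 5 sets of genes. The lower share is 23.0% for ZNF genes of chromosome 19, 13.7% without the run from ZNF101 to ZNF254, 11.0% for ZNF genes elsewhere, 3.22% for other genes of chromosome 19 and 3.64% for all named genes.

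Ordered along the chromosome by RefSeq (assembly GRCh38.p14, used for order only), the genes fell into 10 runs, a run being neighbouring ZNF or ZFP genes with at most 5 other protein-coding genes between them and at least 5 genes above the threshold. The runs held 200 of the 217 genes, and their medians all lay below 0, from -0.15 to -1.36. The difference of a gene and that of the next gene along the chromosome had a Pearson correlation of 0.39 over 216 pairs, and of 0.26 over 181 pairs with the lowest run left out. The pairs share genes and may share probe signal.

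**Figure D3:**
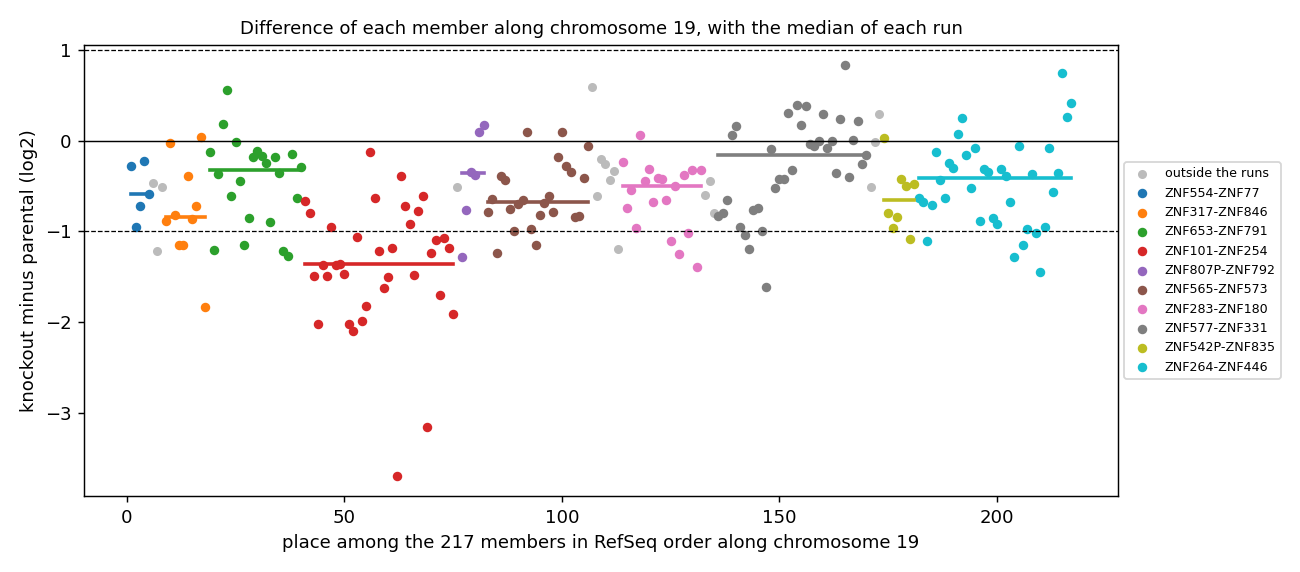
Difference between the arrays (knockout minus parental, log2) for each of the 217 genes in their order along chromosome 19, coloured by run, with a bar at each run's median and dashed lines at 2-fold. The run from ZNF101 to ZNF254 is lowest, with a median of -1.36, and the later part of the run from ZNF577 to ZNF331 scatters around 0.

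The run from ZNF101 to ZNF254, the large primate cluster of the pericentromeric short arm that includes ZNF91, held 35 genes above the threshold, all lower in the knockout array. Of these, 25 (71.4%) were at least 2-fold lower, out of 50 such genes on the chromosome, and 5 were at least 4-fold lower. The run's median was -1.36, with quartiles of -1.66 and -0.93. Without it, the other 182 genes had a median of -0.44, with 25 (13.7%) at least 2-fold lower and 0 higher.

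ZNF676 was lowest and stood at 4.73 against 8.42, which is 12.9-fold or -3.69. Its knockout value is under the threshold, so the signal that remained was dim. ZNF730 stood at 7.92 against 11.07, which is 8.88-fold or -3.15. The 6 genes of the run that lie between ZNF676 and ZNF730 differed less, from ZNF729 at -0.39 to ZNF492 at -1.48. ZNF85 stood at 7.07 against 9.16, a difference of -2.09. ZNF253 stood at 11.24 against 13.26, a difference of -2.02. ZNF66 stood at 8.48 against 10.50, a difference of -2.01. These 5 genes are those at least 4-fold lower.

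ZNF254 was the brightest gene of the run and differed by -1.90, at 13.05 against 14.95. ZNF91, whose protein restrains SVA retrotransposons, stood at 9.88 against 10.97, which is 2.14-fold or -1.10. ZNF93, whose protein binds LINE-1 elements, stood at 6.83 against 8.19, which is 2.58-fold or -1.37. ZNF675, which is also known as an inhibitor of TRAF6 signalling, stood at 12.61 against 13.68, a difference of -1.08. Bright and dim genes of the run were both among those 2-fold lower.

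Of the other genes in the run that passed 2-fold, ZNF708, ZNF738, ZNF725P, a pseudogene, and ZNF43 differed by -1.99 to -1.62. ZNF208, ZNF682, ZNF506, ZNF492, ZNF626, ZNF486 and ZNF737 differed by -1.51 to -1.36. ZNF724, ZNF100, ZNF681, ZNF257 and ZNF430 differed by -1.24 to -1.06. The 10 genes of the run under 2-fold ran from ZNF90 at -0.95 to ZNF493 at -0.13, and ZNF493 was dim, at 4.74 against 4.87.

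Probe sets of the run that the choice of genes had left out were mostly lower as well, but by less than the run's genes where they had no symbol. Clusters with more than 1 symbol were ZNF431 with VN1R82P, at 10.23 against 11.36 or -1.14, ZNF714 with VN1R81P, at 7.01 against 7.96 or -0.95, and ZNF726 with ZNF92P3, at 5.51 against 7.03 or -1.52. Of transcript clusters without a gene symbol whose identifiers number between those of the run's genes on either strand, 60 were above the threshold, and 18 (30.0%) were at least 2-fold lower and 1 higher, with a median of -0.54. Further clusters of the run's own genes were closer to 0 than the main ones, with ZNF429 at 0.13 and ZNF91 at -0.58 for those above the threshold. Over all 25311 clusters without a symbol above the threshold, 4.26% were 2-fold lower and 3.56% higher. Such clusters may be parts of the ZNF genes themselves.

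The 15 named genes of the run that are no ZNF genes, all pseudogenes and long non-coding RNAs, had a median of -0.21, with 2 at least 2-fold lower. These were the vomeronasal receptor pseudogenes VN1R83P and VN1R84P, each at -1.68. By any amount 8 of the 15 were lower and 6 higher. The pseudogene IPO5P1 was just short of 2-fold lower, at 6.18 against 7.17. The long non-coding RNAs LINC00664, LINC01224 and LINC01233 differed by -0.69, -0.53 and -0.23. These 4 were also named after their values were seen. Pseudogenes of ribosomal proteins, whose probes may capture their parent genes, lay closer to 0 (named after their values were seen), with RPL36AP51 at 0.30, RPS27P29 at 0.29, RPL34P34 at 0.19 and RPL7AP10 at 0.07.

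The start regions of the run's genes resembled each other. RefSeq promoter windows (GRCh38.p14, 250 bases before the start and 50 from it on, first listed start) were at hand for 182 of the 217 genes and for 25 of the 35 in the run, ZNF676 not among them. Global alignment gave a median identity of 75.2% over the 300 pairs of the run's windows, while in the other 9 runs the median was 47.7% to 53.9%. The windows shown here, 100 bases before the start and 20 from it on, are those of the 2 lowest genes of the run with a window, its brightest gene and its least different gene, and outside the run the brightest gene of all and ZNF468, which had the highest difference, 0.39, among genes with a mean over 10. Capitals mark the motifs ACAAAG, on either strand (CTTTGT where it is read on the opposite one), and CCAAT.
ZNF730, chr19:23116925-23117044, plus strand: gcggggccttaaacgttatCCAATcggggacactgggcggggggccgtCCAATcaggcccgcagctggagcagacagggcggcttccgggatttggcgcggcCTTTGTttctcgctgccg
ZNF85, chr19:20923151-20923270, plus strand: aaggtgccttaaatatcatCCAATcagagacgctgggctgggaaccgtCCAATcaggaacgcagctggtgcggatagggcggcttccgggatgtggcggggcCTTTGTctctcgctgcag
ZNF254, chr19:24087087-24087206, plus strand: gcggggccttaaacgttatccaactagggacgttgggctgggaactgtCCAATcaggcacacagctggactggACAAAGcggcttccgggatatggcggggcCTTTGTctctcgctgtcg
ZNF493, chr19:21397033-21397152, plus strand: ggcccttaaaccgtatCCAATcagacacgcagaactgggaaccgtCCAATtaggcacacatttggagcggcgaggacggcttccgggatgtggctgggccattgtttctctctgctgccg
ZNF160, chr19:53103403-53103522, minus strand: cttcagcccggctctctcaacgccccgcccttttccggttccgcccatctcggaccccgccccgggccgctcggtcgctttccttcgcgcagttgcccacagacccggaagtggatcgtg
ZNF468, chr19:52857600-52857719, minus strand: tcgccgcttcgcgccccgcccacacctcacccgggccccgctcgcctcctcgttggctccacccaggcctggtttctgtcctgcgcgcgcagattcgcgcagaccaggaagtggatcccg
Over these 120 bases ZNF730 and ZNF85 were 82.5% identical, ZNF730 and ZNF254 83.3%, and ZNF730 and ZNF160 43.2%.

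On both strands of the 300-base windows 4 motifs were searched, none contained in another. The first was ACAAAG, letters at the core of many sites that SOX proteins bind. The others were the CCAAT box, which the factor NF-Y reads, the motif CCGGAAG, known from sites of ETS factors, and TATAAA of the TATA box. The motifs were chosen with the differences of the genes known. ACAAAG was in 19 of the 25 windows of the run, in 27 of 157 windows (17.2%) of the other ZNF genes of chromosome 19 and in 4368 of the 27305 windows of the whole table. Within the run it was mostly read as CTTTGT at the start itself, with 20 such matches in 19 genes and a median place 1.5 bases before the start. CCAAT was in 25 of 25 windows of the run against 35.7% of the table, CCGGAAG in 18 against 10.7% and TATAAA in 3 against 12.0%. The other ZNF genes of chromosome 19 had CCAAT in 46.5% of windows, CCGGAAG in 42.7% and TATAAA in 0.637%. For ZNF genes on other chromosomes the shares were 44.6%, 37.3% and 4.22%, so the first 2 motifs were above the table's share in ZNF genes outside the run too.

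All 19 genes of the run with ACAAAG in the window were at least 2-fold lower, from -1.06 to -3.15, with a median of -1.37. The run's windows had a median identity of 75.2%, and the motif lay mostly at the same place in them. These 19 genes are therefore not independent cases, and the motif cannot be told apart from the rest of the shared sequence. Of the 6 genes without it, 1 was 2-fold lower, ZNF708 at -1.99, and the others were ZNF90, ZNF14, ZNF101, ZNF429 and ZNF493, with a median over the 6 of -0.73. In ZNF708 the CCGGAAG match lay past the listed start, while its median place in the run was 18.5 bases before the start. The place where the run's other genes mostly have ACAAAG may thus lie past the end of the ZNF708 window. Whether ZNF708 has the motif there was not tested. With any RefSeq start allowed, 6 genes of the run were still without the motif, 1 of them 2-fold lower. The genes with the motif were also brighter, with a parental median of 10.8 against 7.19 for those without it. Outside the run, 9 of 27 genes with the motif (33.3%) and 13 of 130 without it (10.0%) were at least 2-fold lower, with medians of -0.74 and -0.42. On other chromosomes the medians of ZNF genes were -0.68 for 29 with the motif and -0.25 for 137 without it. Of the 29, 6 were 2-fold lower and 1 higher, and of the 137, 12 were lower and 4 higher. Over 9564 other named genes with a window, 6.20% of those with it and 3.52% of those without it were 2-fold lower. Their medians were -0.04 and 0.09. More genes were 2-fold higher than lower in both groups, 73 against 66 of 1064 with the motif and 698 against 299 of 8500 without it.

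**Figure D4:**
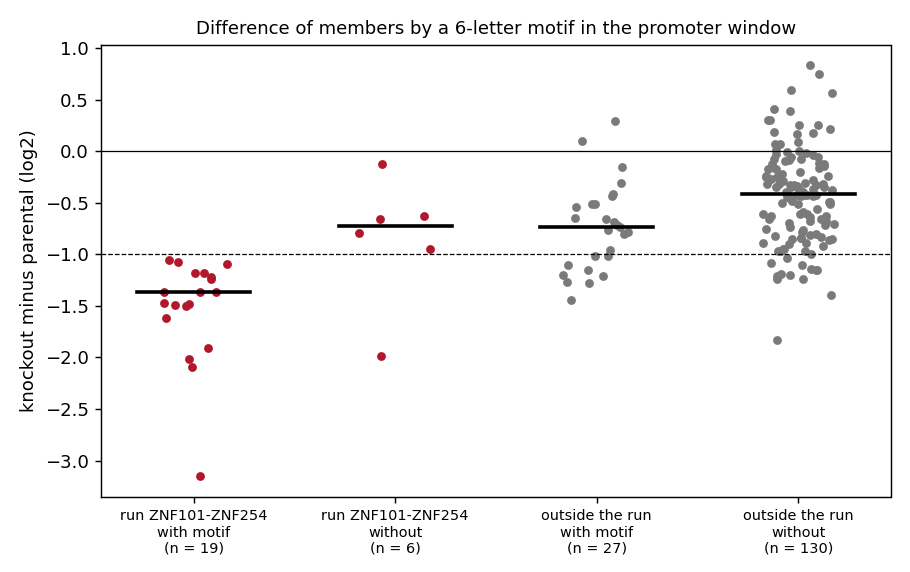
Difference between the arrays (knockout minus parental, log2) for the 182 genes with a promoter window, 1 point per gene, split by membership in the run from ZNF101 to ZNF254 (red) and by the presence of ACAAAG on either strand, with a bar at each median and a dashed line at 2-fold lower. All 19 genes of the run with the motif lie under the dashed line, and 1 of the 6 without it does. Points are spread sideways at random.

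Within the run CCGGAAG also went with lower values, since 17 of the 18 genes with it and 3 of the 7 without it were at least 2-fold lower, with medians of -1.36 and -0.95. CCAAT was in all 25 windows there and so divides nothing. Outside the run, 12.3% of genes with CCAAT and 15.5% of those without it were at least 2-fold lower, and for CCGGAAG the shares were 10.4% and 16.7%. The windows of the run held fewer CpG dinucleotides, with a median of 10 per window against 21 for the other ZNF genes of chromosome 19 and 14 in the whole table. Across the 182 genes the number of CpG dinucleotides and the difference had a Pearson correlation of 0.32. A motif or CpG count describes the sequence alone, and whether SOX4 binds there was not measured.

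The run from ZNF577 to ZNF331, on the long arm, had the median nearest to 0. Of its 35 genes above the threshold 3 were at least 2-fold lower, 0 were 2-fold higher, 12 were above 0, and the median was -0.15. The run was not even along its length. The 16 genes from ZNF577 to ZNF578 had a median of -0.75, while the next 19 genes, from ZNF83 to ZNF331, had a median of 0.00 and ran from -0.40 to 0.83, a division made after the values were seen.

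In the first of these parts ZNF610 stood at 6.19 against 7.79, a difference of -1.61, ZNF841 at -1.20 and ZNF432 at -1.04. ZNF649, whose protein binds LINE-1 elements, stood at 10.55 against 11.34, a difference of -0.79. ZNF528, listed here with the retrotransposon-binding proteins, stood at 9.55 against 10.07. In the second part ZNF160, reported as a repressor of TLR4, was the brightest of all 217 genes, at 15.75 against 15.83, a difference of -0.08. A further transcript cluster of ZNF160 stood at 7.64 against 7.72. ZNF765, whose protein binds LINE-1 elements, stood at 7.57 against 7.35, a difference of 0.21.

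ZNF331, an imprinted gene often methylated in tumours, stood at 10.76 against 10.91. ZNF468 stood at 12.30 against 11.91 and ZNF28 at 12.81 against 12.64, both named after their values were seen. ZNF677 had the largest positive difference of all, 0.83, at 5.30 against 4.47, and its parental value was under the threshold.

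The run from ZNF264 to ZNF446, at the end of the long arm, held 36 genes above the threshold with a median of -0.41, of which 5 were at least 2-fold lower and 0 higher. ZNF135, often methylated in tumours, was lowest, at 8.44 against 9.89, a difference of -1.45. ZNF587 stood at 10.29 against 11.57, a difference of -1.28, and its near copy ZNF417 at 11.59 against 12.73, a difference of -1.15. Proteins of both have been tied to the silencing of HERV-K proviruses, and their probes may share signal. ZNF460 differed by -1.10 and ZNF606 by -1.01. ZNF274, which recruits SETDB1 to the ends of zinc finger genes, was level, at 5.72 against 5.80. ZNF304, described in silencing of tumour suppressor genes, stood at 8.23 against 8.35. The highest of the run was ZNF584, at 9.06 against 8.32, a difference of 0.74.

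The run from ZNF565 to ZNF573 was lower more evenly, with 24 genes, a median of -0.67 and 22 of them below 0, but only 2 past 2-fold. ZNF566 stood at 6.24 against 7.48, a difference of -1.24. ZNF568 stood at 6.82 against 7.96, a difference of -1.14, and its mouse counterpart represses a placental transcript of Igf2. ZNF146, which is made of fingers without a KRAB domain, was the second brightest of all 217 genes and stood at 14.33 against 14.97, a difference of -0.65. ZNF420, a KRAB protein that restrains p53, stood at 6.72 against 7.53, a difference of -0.81. ZNF382, described as a tumour suppressor, differed by -0.43 and ZNF569 by -0.27. ZNF345 was highest, at 0.10. The 11 other named genes within the run, among them antisense RNAs of its ZNF genes, had a median of -0.63, with the non-coding RNA LINC01535 at -1.07, ZNF790-AS1 at -0.75, ZFP82 at -0.74 and ZFP30 at 0.00 to 2 decimals. Antisense genes and their partners may share signal where probes do not keep strand.

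The run from ZNF283 to ZNF180 held 19 genes with a median of -0.50. ZNF229 stood at 5.42 against 6.81, a difference of -1.39, ZNF227 at 10.07 against 11.31, a difference of -1.24, ZNF234 at -1.10 and ZNF235 at -1.02. ZNF224, a corepressor partner of WT1, stood at 9.56 against 9.98, a difference of -0.42, and ZNF155 was highest, at 0.06. A single gene of this run was thus above 0.

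On the short arm, the run from ZNF317 to ZNF846 held 10 genes with a median of -0.84. ZNF846 stood at 4.74 against 6.56, a difference of -1.83, while ZNF560 and ZNF426 each differed by -1.15, and the pseudogene ZNF812P was highest at 0.04. The bright genes ZNF121, at 13.37 against 13.76, and ZNF562, at 12.83 against 13.55, differed by less. The run from ZNF653 to ZNF791 held 22 genes with a median of -0.32, and ZNF443 at -1.27, ZNF799 at -1.21, ZNF627 at -1.20 and ZNF69 at -1.15 were past 2-fold. Its highest gene, ZNF441, stood at 5.26 against 4.70, a difference of 0.56. In the run from ZNF554 to ZNF77 all 5 genes were lower, from ZNF555 at -0.95 to ZNF57 at -0.23.

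The smaller runs of the long arm went the same way. In the run from ZNF542P to ZNF835, with 8 genes and a median of -0.65, ZNF71 differed by -1.08 and ZNF542P, a pseudogene, by 0.03. ZNF582 at -0.80 and ZNF583 at -0.97, both often methylated in tumours, belong to it. In the run from ZNF807P to ZNF792, with 6 genes and a median of -0.36, the pseudogene ZNF807P differed by -1.28 and ZNF792 by 0.17. Outside the runs, 17 genes had a median of -0.47, and ZNF358 at -1.21 and ZNF428 at -1.20 passed 2-fold.

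By role, the 7 genes listed for binding of retrotransposons and measured under a single symbol were ZNF91, ZNF93, ZNF587, ZNF417, ZNF649, ZNF528 and ZNF765. A further listed gene, ZNF808, had a cluster shared with RPL39P34, at 10.57 against 10.91 or -0.35, and was not counted. Of these 7 genes, 4 were at least 2-fold lower and 0 higher, with a median of -1.10. Over all 217 genes 23.0% were 2-fold lower and 0 higher, against 3.64% and 6.50% of all named genes. The 4 lower ones were ZNF91 and ZNF93, of the lowest run, and the near copies ZNF587 and ZNF417. Of 10 genes listed as often methylated in tumours, 7 were above the threshold, 2 were 2-fold lower, ZNF135 and ZNF568, and 0 higher, with a median of -0.80. The other 3, ZNF154, ZNF671 and ZNF132, were under the threshold in both arrays. Of 7 genes with other described roles 5 were above it, 1 was 2-fold lower, ZNF675, and the median was -0.42. The lists are small, and the counts of the last 2 lie near the 23.0% of the 217 genes.

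A list of KRAB partners and of other genes of heterochromatin and DNA methylation, TET1, TET2 and TET3 among them, differed less. Of 31 measured genes of this list, all above the threshold, 2 were at least 2-fold lower and 1 higher, with a median of -0.25, counts close to the 3.64% and 6.50% of all genes. TRIM28, the corepressor itself, stood at 13.00 against 13.59, a difference of -0.59. SETDB1 stood at 12.48 against 12.29, the HP1 genes CBX1 at 13.29 against 13.68 and CBX3 at 16.67 against 16.95, and TASOR, of the HUSH silencing complex, at 10.89 against 10.27. Among genes of DNA methylation, the methyltransferase gene DNMT3A stood at 12.13 against 13.37, a difference of -1.24, DNMT3B at 9.40 against 10.35, and the maintenance enzyme gene DNMT1 at 10.84 against 10.82. TET1, which oxidises methylated cytosine, stood at 7.61 against 9.44, a difference of -1.83, while TET2 was level, at 10.90 against 10.96. CHD3, of the NuRD complex, was the gene 2-fold higher, at 9.60 against 8.22.

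Further transcript clusters of the same genes were few. Of 44 such clusters, belonging to 16 of the 217 genes, 30 were above the threshold, with a median of -0.42, 2 at least 2-fold lower and 0 higher. Most of these 30 were unmapped clusters of ZNF780A, ZNF780B and ZNF546, some with equal values, so the median mainly describes those genes. Both of the clusters at least 2-fold lower were unmapped ones of ZNF780B with equal values, 7.34 against 8.73. A further cluster of ZNF91 stood at 8.40 against 8.98, a difference of -0.58, closer to 0 than that of its main cluster. A further cluster of ZNF627 was dim, at 4.50 against 4.92, a difference of -0.42 where its main cluster gave -1.20. Both genes were thus 2-fold lower by their main cluster but not by these further ones.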

How the data were processed

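Total RNA of 1 SOX4 knockout and 1 parental Hep3B culture was read on an Affymetrix array. The authors deposited log2 values, for which the submitters' processing notes name RMA and Transcriptome Analysis Console. No version of either was found in the labels. By design, RMA works on background, on differences between arrays and on the summary of probes. The highest value was 19.82, more than log2 of a 16-bit scan can give, so folds hold on the deposited scale only.

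Names came from the platform annotation, and each gene was represented by its chromosome 19 cluster with the highest mean. For ZNF780B this is not its highest cluster overall. The design has no replicates and no test, and genes at least 2-fold apart were counted, a step checked on simulated data. The rule for named genes took every gene at least 2-fold apart, the ends of each run, the 5 brightest genes, those next to the threshold and the role lists. Exceptions are said where they stand, and the remaining genes of the lowest run and those that mark the ends of stretches are named to complete their groups. The genes and lists were chosen with earlier results of these data known, and the motifs after the differences were computed. All 217 genes matched RefSeq. A planned count of fingers and KRAB boxes was not analysed here. Python 3.11.15, pandas 2.3.3, numpy 2.4.6, scipy 1.17.1, statsmodels 0.14.6 and matplotlib 3.10.9 were used.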

Additional observations from a re-analysis of the deposited data

How the results depend on the processing

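The count of 50 genes at least 2-fold lower ranged from 46 to 64 under quantile normalization, centring of the arrays, removal of the level trend, other choices of row per gene and other level thresholds, the median from -0.65 to -0.49 apart from centring, and the count of 2-fold higher genes was 0 under each of these. Centring each array moved the median of all named genes by -0.11 and that of the ZNF genes to -0.71, over the 219 that then passed the threshold. Without the run from ZNF101 to ZNF254, 25 genes were 2-fold lower and the median was -0.44. With ZFP genes added, 1 was 2-fold higher, ZFP36, whose fingers are of another class. At 1.5-fold 110 were lower and 3 higher, and at 4-fold 5 were lower. The number of runs was 10 with at most 2 genes between neighbours and 9 with at most 10. The ACAAAG count of 19, with any RefSeq start allowed, was also 19, an alternative added after seeing the data, as was choosing rows over all clusters. No paired analysis was possible because each genotype has 1 array. Signal over background was not analysed here, so the 10 genes with a dim knockout value have an uncertain difference.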
